A study of Mus musculus with 2 samples.

Results

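Leukocytes are meant to be removed when mesenchymal stromal cells (MSC) are sorted with an antibody against CD45, yet some transcriptomes in the sorted grafts carried leukocyte transcripts. These cells were chosen by their counts. A cell was a member if it held at least 1 unique molecular identifier (UMI, 1 counted molecule) for at least 3 of the 5 leukocyte markers Ptprc, Tyrobp, Cd52, Laptm5 and Fcer1g. By this rule 122 of 17783 cells that passed quality limits were members, from 21199 barcodes in all. Members were then split by the summed UMIs of the fibroblast genes Dcn (decorin) and Col1a2 (a type I collagen chain). Members with 0 to 2 such UMIs are called Dcn/Col1a2-low and those with 3 and more Dcn/Col1a2-high. Because the markers and the split used measured values, levels of these 7 genes only describe how the cells were chosen.

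The cells came from 2 libraries. Gut of E12.5 embryos of the EYFP (C57BL/6) strain, which carries a yellow fluorescent protein (YFP), either the small intestine (SI) or the large intestine (LI), was grafted beneath the kidney capsule of adult wild-type (WT) mice and taken after 4 weeks. Live cells were sorted as YFP+ and Itgb1+, and as negative for CD45, Ter119, BP3, CD31, EpCAM and L1CAM, so the gate was set against leukocytes, red cells, lymphoid stroma, endothelium, epithelium and glia. Several LI grafts had been pooled for their library, and whether the same held for SI was not stated. Each graft had grown in a WT host whose blood cells were intact, and YFP was not analysed here, so graft and host leukocytes cannot be told apart. Libraries were made with a 3′ v3 or a 5′ kit, and which kit served which library was not stated. With 1 library per group there was no replicate and no test, and differences between SI and LI may come from the libraries. All intervals are 95% intervals and cover counting error only.

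Ptprc encodes CD45, a receptor phosphatase on the surface of nearly all white blood cells and the antigen used to gate leukocytes out. Tyrobp (DAP12) and Fcer1g (the Fc receptor gamma chain) are small membrane adaptors that carry the signal of activating receptors of myeloid and natural killer (NK) cells, Laptm5 is a lysosomal membrane protein of blood cells, and Cd52 is a short surface glycoprotein rich on lymphocytes. In the adult gut, macrophages, dendritic cells, T cells and plasma cells populate the lamina propria, and stromal cells feed them with growth factors and chemokines such as Csf1, Il34, Kitl and Cxcl12.

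Promoters of the marker genes are shown because these genes chose the members, and 3 of the 5 were found in the RefSeq promoter table (GRCm38.p6, 250 bases before to 50 after the start). The 6 bases GAGGAA, a run bound by PU.1 (encoded by Spi1, a myeloid and B cell transcription factor), were searched on both strands, so that TTCCTC marks the reverse strand. Only this exact run was searched, so a window with 0 matches may hold other runs that PU.1 binds. No matches overlap within the windows shown, and matches are in capitals. Of all 32851 promoters of this length in the table, 9289 (28.3%) held the motif, so a match is common.
Ptprc, chr1:138175256-138175555, minus strand: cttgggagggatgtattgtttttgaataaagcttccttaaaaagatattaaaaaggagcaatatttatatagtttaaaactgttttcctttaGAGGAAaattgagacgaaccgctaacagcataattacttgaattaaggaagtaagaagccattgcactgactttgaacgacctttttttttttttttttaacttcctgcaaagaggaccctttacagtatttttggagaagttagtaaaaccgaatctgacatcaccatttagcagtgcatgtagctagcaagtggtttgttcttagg
Laptm5, chr4:130913066-130913365, plus strand: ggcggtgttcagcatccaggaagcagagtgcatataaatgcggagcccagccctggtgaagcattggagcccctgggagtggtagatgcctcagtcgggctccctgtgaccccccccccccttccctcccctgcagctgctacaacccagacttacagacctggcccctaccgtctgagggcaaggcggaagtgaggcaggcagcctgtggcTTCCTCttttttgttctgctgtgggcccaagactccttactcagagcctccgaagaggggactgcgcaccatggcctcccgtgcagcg
Fcer1g, chr1:171234300-171234599, minus strand: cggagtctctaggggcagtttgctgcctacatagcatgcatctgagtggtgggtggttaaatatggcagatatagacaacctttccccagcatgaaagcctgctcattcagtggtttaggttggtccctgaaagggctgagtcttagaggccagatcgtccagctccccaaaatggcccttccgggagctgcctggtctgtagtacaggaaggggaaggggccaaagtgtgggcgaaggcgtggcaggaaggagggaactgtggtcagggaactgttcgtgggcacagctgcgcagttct
The Ptprc and Laptm5 windows held 1 match each and the Fcer1g window 0, and a window at another Ptprc start, chr1:138175077-138175376, also held 0. A match is a run of letters and was not shown to be a binding site.

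Members were rare in both libraries. In the LI graft 73 of 9873 passing cells (0.739%, interval 0.58 to 0.929) were members, and in the SI graft 49 of 7910 (0.62%, interval 0.459 to 0.818). Most passing cells held no marker at all, 8932 in LI and 7160 in SI. With 2 markers, just outside the rule, there were 137 cells in LI and 127 in SI, and with 3, just inside it, 48 and 41. The counts were 10 and 3 cells with 4 markers and 15 and 5 with all 5. Of the 26 barcode sequences found in both libraries, 0 belonged to members. Total depth was 63348069 UMIs in LI and 54918006 in SI.

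**Figure D1:**
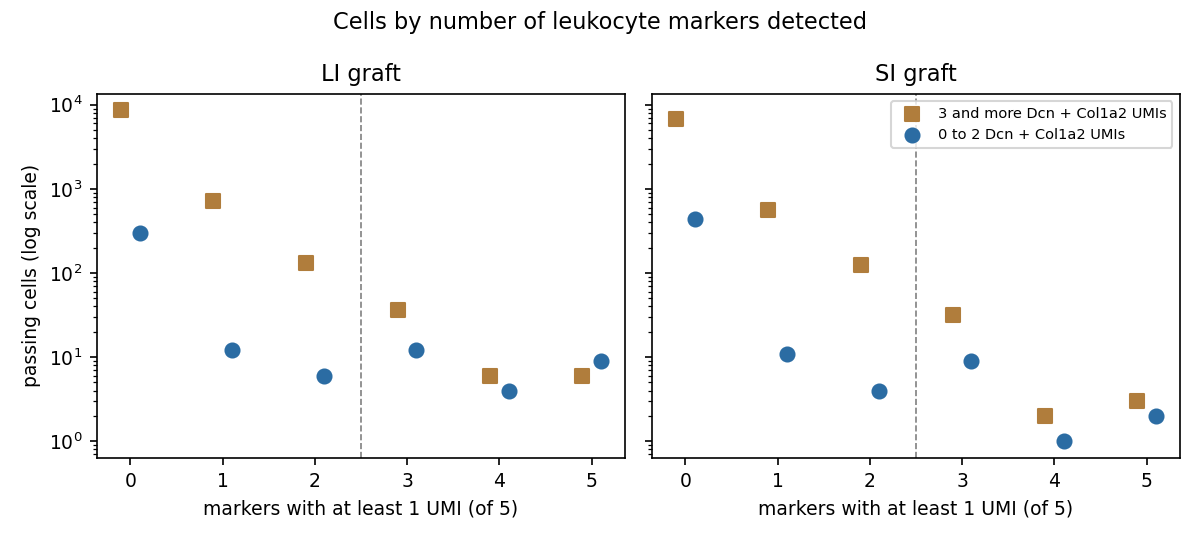
Passing cells of each library (vertical axis, log scale) by the number of the 5 leukocyte markers with at least 1 UMI (horizontal axis), drawn apart for cells with 0 to 2 and with 3 and more Dcn plus Col1a2 UMIs; the dashed line marks the rule. Cells with 5 markers numbered 15 in LI and 5 in SI.

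Dcn and Col1a2 split the members into groups with few cells between them. In LI 25 members (34.2%, interval 23.5 to 46.3) were Dcn/Col1a2-low and 48 were Dcn/Col1a2-high. In SI 12 members (24.5%, interval 13.3 to 38.9) were low and 37 were high. In LI 10 members held 0, 11 held 1 and 4 held 2 UMIs of these genes. Just above the limit, 5 LI members held 3 UMIs, 1 held 5 and 1 held 7, and the other 41 held 33 to 518. In SI 5 members held 0, 6 held 1 and 1 held 2 UMIs, while 3 members held 3, 13 and 15 and the other 34 held 34 to 957.

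The Dcn/Col1a2-low members were shallower cells than those around them. Their median depth was 2891 UMIs in LI (range 744 to 28146) and 2674 in SI (range 1293 to 22302). The Dcn/Col1a2-high members had medians of 6270 and 7453 UMIs and all other passing cells 5286 and 5679. Depth therefore moved with the split. Thinning to 2000 UMIs per cell, which left out 8 of 25 LI and 4 of 12 SI low members, 1 high member in each library, and 718 and 532 other cells, gave 0.24% members in LI and 0.163% in SI. Of these thinned members 16 of 22 in LI (72.7%) and 7 of 12 in SI (58.3%) were low. The limit of 2 UMIs also set the share, which was 13.7% and 10.2% with 0 Dcn plus Col1a2 UMIs only. Among later differences depth was examined by thinning only for the share with macrophage genes.

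Leukocyte genes that the rule did not use marked most of the Dcn/Col1a2-low members. Of 15 such genes, which include Coro1a and Lcp1 (actin regulators of blood cells) and Rac2 (a GTPase of blood cells), the median cell held 7 in LI and 8 in SI, against 1 in other passing cells of both libraries. At least 5 of them were found in 21 of 25 low members in LI and in 10 of 12 in SI, against 0.102% and 0.14% of other passing cells. The Dcn/Col1a2-high members held a median of 2 and 3, and 11 of 48 and 8 of 37 held at least 5. The label of immune cells was thus matched by at least 5 further leukocyte genes in most low members and in fewer of the high ones. LI U4, LI U12 and SI U11 (low members named by library and falling depth) held only 2.

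**Figure D2:**
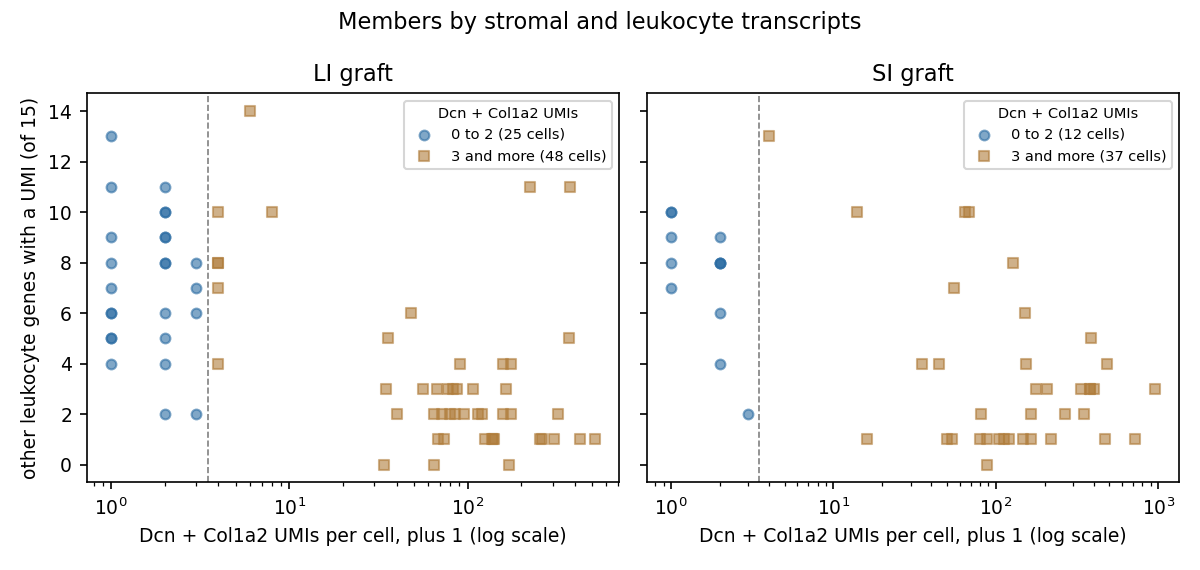
The 122 members by their summed Dcn and Col1a2 UMIs plus 1 (horizontal axis, log scale) and the number of 15 further leukocyte genes with a UMI (vertical axis); circles are Dcn/Col1a2-low members (25 in LI, 12 in SI) and squares Dcn/Col1a2-high members (48 and 37), and the dashed line is the split. Low members had medians of 7 and 8 genes, high members 2 and 3.

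Each marker was shared unevenly among the low members. Ptprc (chr1:138062861-138175708) was found in 19 of 25 LI and 10 of 12 SI cells, with pooled levels of 427 and 682 UMIs per 1000000 UMIs (CPM), against 0.447 and 0.234 CPM in other passing cells. Laptm5 (chr4:130913125-130936141) was found in 24 of 25 and 8 of 12. Cd52 (chr4:134082448-134095082) was found in 19 of 25 and 12 of 12. Tyrobp (chr7:30413760-30417585) was found in 18 of 25 and 5 of 12, and Fcer1g (chr1:171229572-171234365) in 17 of 25 and 6 of 12. Pooled levels of these adaptors, which the rule used, were 2734 (LI) and 559 CPM (SI) for Tyrobp and 1187 and 367 for Fcer1g. Of the 410 Tyrobp UMIs in LI, 295 came from 4 cells led by Acp5, described below, and without them Tyrobp was 1354 CPM, in 14 of 21 cells, and Fcer1g 1071 CPM, in 13 of 21. Ptprc, Cd52 and Laptm5 without either adaptor was the combination of 6 LI and 6 SI cells, while all 5 markers were held by 9 LI and 2 SI cells. Spi1, not used by the rule, was found in 12 LI cells (574 CPM) and 2 SI cells (52.4 CPM, from 3 UMIs), against 1.31 and 1.74 CPM in other passing cells. Positions are those of GRCm38 (mm10) in GENCODE.

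The gate had also been set against endothelium and epithelium, and the low members held few such transcripts. Of 10 endothelial genes 9 were at 0 in LI and 10 in SI, and of 9 epithelial genes 7 and 8 were at 0. All 7 erythroid genes were at 0 in the members of both libraries. Itgb1, the integrin used to sort cells in, was found in 15 of 25 LI and 7 of 12 SI low members (340 and 175 CPM), against 88.2% and 90.7% of other passing cells (573 and 662 CPM). Bst1, the gene of BP3, had 1 UMI in LI and 0 in SI.

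Stromal genes other than those of the rule were low in the Dcn/Col1a2-low members. Over 20 such genes the median level was 1.96% of that in other cells in LI and 0.95% in SI, and 15 of the 20 lay under 5% in both libraries. Sparc, a matrix glycoprotein, was 193 CPM in LI and 140 in SI against 12920 and 14140 in other cells, and Col1a1 was 100 and 69.9 against 5066 and 6313. Vim, an intermediate filament that leukocytes also express, was the highest of the list in LI at 135% of the level in other cells, and Lgals1, a galectin, was the highest in SI at 26.4%. In the Dcn/Col1a2-high members the median of these genes was 86.0% in LI and 103.1% in SI. These pooled levels came mainly from the 41 LI and 34 SI members with at least 16 Dcn plus Col1a2 UMIs, which held 13 to 20 (LI) and 14 to 20 (SI) of the 20 genes, with a median of 18 in both. The 7 LI members with 3 to 15 held 3 to 8 of the genes, at a median level of 2.06% of that in other cells, and the 3 such SI members held 6, 11 and 15. Low members held 1 to 13 in LI and 1 to 7 in SI.

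Genes lay apart from the other passing cells in both directions. Of 3312 genes with at least 50 CPM in either cell group of both libraries, 145 (4.38%) were at least 4-fold higher in the low members of both libraries. With low members taken at no less than 3 UMIs, since 3 UMIs stood for 20 CPM in LI and 52.4 CPM in SI, 172 (5.19%) were at least 4-fold lower in both. A pseudocount of 1 CPM alone would put 498 (15%) there, of which 382 had 0 UMIs in low members of at least 1 library. Genes are called lower here only by the first rule. The median log2 ratio of all genes was -0.21 in LI and -0.68 in SI with the pseudocount, and -0.21 and -0.28 with the level of 3 UMIs. All 5 rule markers were among the higher genes, as the rule fixed, and so were 11 of the 12 further leukocyte genes that were measured highly enough. A gene under 50 CPM in other cells was measured only through the low members, so its call largely follows from the level limit. This holds for these 11 genes. The 20 genes with the largest ratios were Ptprc, Cytip, Ly6d, Lcp1, Cd52, Nkg7, Laptm5, Gpr183, Ly6c2, Rac2, Cd3g, Ms4a6b, Ccl4, Il1b, Coro1a, Cd3d, Bcl2a1b, Cd8b1, Dnase1l3 and Ccr1. These genes were called from cells chosen by leukocyte genes, and the ranking is a description. With low members of 0 Dcn plus Col1a2 UMIs only, which left fewer SI cells, the smaller ratio turned negative for Il1b (-3.52), Ccl4 (-2.62), Dnase1l3 (-0.30) and Ccr1 (-0.21).

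Lcp1 (L-plastin, which bundles actin in leukocytes) was 600 CPM in LI low members and 524 in SI against 1.74 in other cells of both libraries. Coro1a (coronin 1A) was 427 and 874 CPM against 2.79 and 3.43. Rac2 was 607 and 349 CPM against 1.16 and 1.72. Cytip, which binds cytohesin in lymphocytes and dendritic cells, was 387 and 594 CPM against 0.612 and 0.702. These levels were carried by many cells, since Lcp1 was found in 20 of 25 LI and 8 of 12 SI cells and Cytip in 11 and 10. Bcl2a1b, a survival gene of the Bcl2 family, was found in 13 and 7 cells. Ms4a6b, of the membrane-spanning 4A family, was found in 11 and 8, and Gpr183, an oxysterol receptor that guides lymphocytes and dendritic cells, in 11 and 5. Other members of the 20 came from few cells. Ly6d was found in 4 LI cells and 1 SI cell, and without that SI cell its SI ratio turned to -0.19 on the log2 scale. Dnase1l3, a nuclease of dendritic cells and macrophages, was found in 2 LI and 2 SI cells. Ccr1, a chemokine receptor of myeloid cells, was found in 6 LI cells and 1 SI cell, and Il1b (interleukin 1 beta) and Ccl4 (a chemokine) came from 1 cell each in SI.

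**Figure D3:**
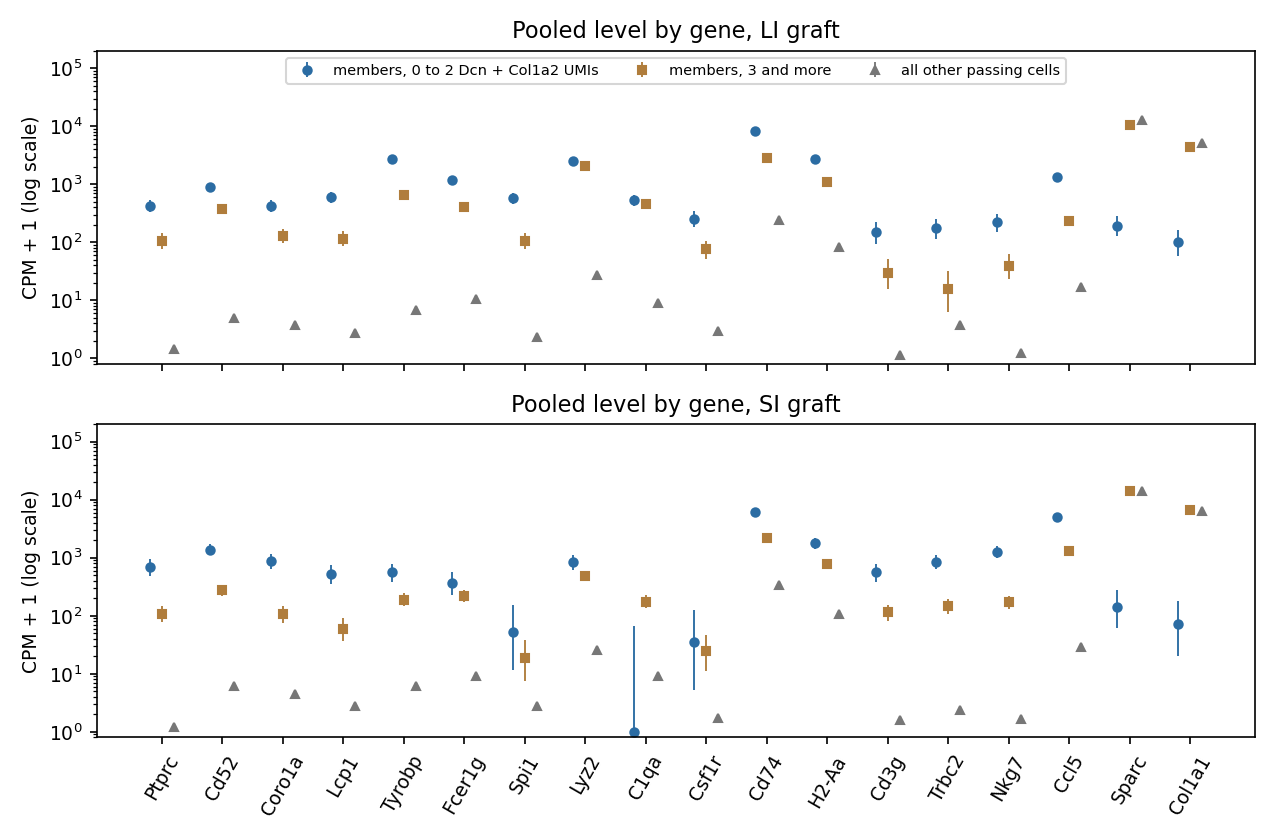
Pooled level of 18 genes (CPM plus 1, log scale, with exact Poisson intervals) in Dcn/Col1a2-low members, Dcn/Col1a2-high members and all other passing cells, for the LI graft (top) and the SI graft (bottom). Leukocyte genes lay highest in low members except C1qa in SI, which had 0 UMIs there, and the stromal genes Sparc and Col1a1 lay near the level of other cells in high members.

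Individual low members could be described by how many genes of each cell type list they held. A list was counted for a cell when it held at least 3 of its genes, and a cell could count for several lists. By lymphoid lists (T, NK or innate lymphoid, B and plasma cells) 7 LI cells and 9 SI cells counted, and by myeloid lists (macrophage, monocyte and dendritic cell lists, and a list of Acp5 genes) 19 and 5, with 1 and 2 cells counting for both and 0 cells for neither. Lymphoid genes thus marked 9 of 12 SI but 7 of 25 LI cells. Cells are named here by library and by falling depth, from LI U1 to LI U25 and from SI U1 to SI U12.

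**Figure D4:**
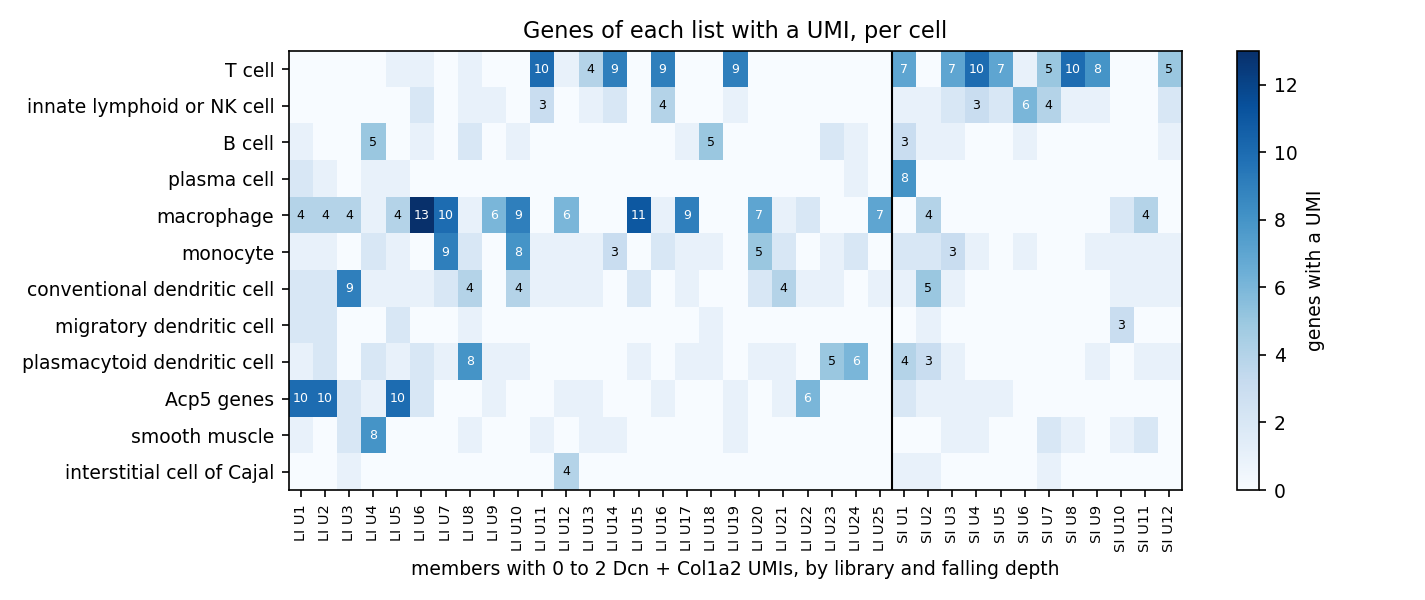
Number of genes with a UMI (colour) from 12 cell type lists (rows) in each of the 37 Dcn/Col1a2-low members (columns, by library and falling depth); numbers of 3 and above are printed and the line parts LI from SI. T cell genes marked 5 LI and 8 SI cells, macrophage genes 13 LI and 2 SI cells.

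T cell genes marked the largest group in SI. At least 3 of 12 T cell genes were held by 5 of 25 LI cells (20%, interval 6.83 to 40.7) and by 8 of 12 SI cells (66.7%, interval 34.9 to 90.1), against 0.0306% and 0.114% of other passing cells. All 7 T cell genes measured highly enough were at least 4-fold higher than in other cells of both libraries, against 4.38% of all genes, with median log2 ratios of 6.00 and 8.43. Cd3g and Cd3d, chains of the T cell receptor complex, were 147 and 127 CPM in LI and 559 and 472 in SI, against 0.149 and 0.165 in LI and 0.624 and 0.254 in SI in other cells. Cd3g was found in LI in 5 cells with 10, 4, 3, 3 and 2 UMIs and in SI in 8 cells with 8, 6, 5, 4, 3, 2, 2 and 2. Each Cd3g count was thus small, and the signal was spread over many cells.

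Among the coreceptor genes, CD8 chains but not Cd4 were detected in these T cell gene cells. Cd8a or Cd8b1, the chains of CD8, was found in 4 of the 5 LI and 5 of the 8 SI cells, and Cd4 in 0 of both. Cd8b1 had 5, 3, 3 and 3 UMIs in these LI cells and 10, 5, 4, 1 and 1 in the SI cells. Pooled over all low members, Cd8b1 was 100 CPM in LI and 367 in SI against 0.0165 and 0.137 in other cells. Cd4 had 1 UMI in LI, outside these cells, and 0 in SI. At this depth a missing coreceptor UMI does not show that a cell lacked the coreceptor. The adaptors Tyrobp and Fcer1g were both at 0 in 5 of 5 LI and 6 of 8 SI cells with T cell genes.

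Ccl5 and Nkg7 were found in most low members with T cell genes. Ccl5 (chr11:83525778-83530518), a chemokine of activated T and NK cells, was found in 4 of the 5 LI and 8 of the 8 SI cells with T cell genes, and so was Nkg7, a protein of cytotoxic granules. Over all low members Ccl5 was 1327 CPM in LI and 5068 in SI, and Nkg7 220 and 1258. Ccl5 had 95, 39, 30, 29 and 6 UMIs in the 5 LI cells that held it, and the cell with 6 was LI U6, which held 13 macrophage genes. In SI it was held by 10 of 12 cells, with 96, 57, 53, 39, 15, 11, 10, 5, 2 and 2 UMIs. Ccl5 was also found in 1.78% and 4.04% of other passing cells (16 and 27.5 CPM). Gzma (granzyme A) had 68 UMIs, all in SI U6, which held 57 Ccl5, 43 Ccl4, 28 Ccl3, 12 Gzmb and 6 UMIs of Ncr1, the NK cell receptor NKp46, and 6 of 12 NK or innate lymphoid genes. Gzma, Gzmb, Ncr1 and Nkg7 are themselves genes of that list. Xcl1, a chemokine of CD8 T and NK cells, had 12 UMIs in SI U5. Mki67, a gene of dividing cells, had 16 and 13 UMIs in SI U8 and SI U9, which held 10 and 8 T cell genes.

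B cell and plasma cell genes were found in few cells. Of 10 B cell genes at least 3 were held by 2 LI cells and 1 SI cell, and Ms4a1 (CD20) was at 0 in both libraries. Plasma cell genes reached 3 of 8 in 1 cell, SI U1, which held all 8. SI U1 was the deepest of the SI low members with 22302 UMIs, 39.0% of their pool. Igkc (an immunoglobulin light chain) had 10993 UMIs in this cell, Igha (the IgA heavy chain) 2474 and Jchain (which joins IgA units) 1008. Immunoglobulin genes took 60.7% of its UMIs, and it held 99.9% of the immunoglobulin UMIs of the SI low members. It also held 96 Ccl5, 19 Trbc2 and 15 Nkg7 UMIs and 7 T cell genes, so it carried plasma cell and T cell transcripts under 1 barcode. Immunoglobulin UMIs were also found in 5.25% of other LI and 8.68% of other SI cells, at pooled levels of 14.2 and 144 CPM.

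Macrophage genes marked more of the LI low members. At least 3 of 16 macrophage genes were held by 13 of 25 LI cells (52%, interval 31.3 to 72.2) and by 2 of 12 SI cells (16.7%, interval 2.09 to 48.4), against 10.5% and 9.91% of other passing cells. The 13 LI cells included LI U1, LI U2, LI U3 and LI U5 with 4 macrophage genes each and LI U12 with 6. These cells are described below by other genes (Acp5, dendritic cell or Cajal lists). A C1q gene was held by 6 of the 13, so the count does not name all 13 as macrophages. After thinning to 2000 UMIs the share was 52.9% in LI (9 of 17 cells) and 0% in SI (0 of 8). The macrophage list held genes that stroma also expresses, since Apoe, which carries lipids, was found in 64.3% and 64.7% of other cells. Of 5 macrophage genes measured highly enough in both libraries, 3 were at least 4-fold higher in the low members of both, against 4.38% of all genes. C1qa, C1qb and C1qc, the chains of complement C1q, were 534, 487 and 167 CPM in LI low members, where each was found in 5 cells. C1qa had 64, 6, 5, 3 and 2 UMIs in these cells, and the first of them was LI U6, which held 13 macrophage genes. In SI, C1qa and C1qc had 0 UMIs and C1qb 1 UMI. C1qa was at least 10.2-fold higher in LI than in SI against the level of 3 UMIs in SI (52.4 CPM). Lyz2 (lysozyme) was 2561 CPM in LI, from 10 cells, and 839 CPM in SI, from 2 cells with 45 and 3 UMIs. In LI, 228 of its 384 UMIs came from LI U10.

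Genes of tissue-resident macrophages were sparse. No low member held 3 of 12 such genes, with 7 of the 12 at 0 in LI and all 12 at 0 in SI. Csf1r, the receptor of the macrophage growth factors Csf1 and Il34, was found in 9 LI cells (253 CPM) and 1 SI cell (34.9 CPM, from 2 UMIs). Cx3cr1 had 0 UMIs in the low members of both libraries, and Mrc1 (the mannose receptor) and Adgre1 (F4/80) had 8 UMIs each in LI and 0 in SI. Monocyte genes reached 3 of 10 in 4 LI cells and 1 SI cell. Ly6c2, which marks inflammatory monocytes and also some T cells, had 22 UMIs in LI and 28 in SI, where SI U4 and SI U3 held 13 and 8. Ccr2 was 113 CPM in LI and had 0 UMIs in SI. Mast cell and neutrophil lists counted for 0 cells, and S100a8, a neutrophil gene, was at 0.

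High counts of Cxcl2, Il1b and Ccl4 were held by a few low members. At least 3 of 23 listed inflammatory cytokine and chemokine genes were held by 10 of 25 LI and 1 of 12 SI low members (40% and 8.33%). Among other passing cells the shares were 33.5% and 46.5%. Cxcl2, a chemokine that draws neutrophils, was 1774 CPM in LI low members and 17.5 CPM in SI, from 1 UMI, against 95.1 and 146 in other cells. LI U7 held 162 of the 266 Cxcl2 UMIs, together with 79 Il1b, 63 Ccl4 and 66 Lyz2. Il1b was 1214 CPM in LI from 8 cells and 1363 in SI from 1 cell, SI U2, which held all 78 UMIs. Ccl4 in SI was likewise from 1 cell. Of 10 measured genes in the list of inflammatory cytokines and chemokines, 2 were at least 4-fold higher in low members of both libraries and 3 at least 4-fold lower, against 4.38% and 5.19% of all genes. The 2 higher ones, Il1b and Ccl4, were measured only through the low members. Ccl2 was 187 CPM in LI and at 0 in SI, against 483 CPM in other LI cells.

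Genes of antigen presentation on major histocompatibility complex (MHC) class II were high in a subset of low members of both libraries. Cd74, the invariant chain, was 8183 CPM in LI from 17 cells and 6168 CPM in SI from 5 cells, against 239 and 333 in other cells. H2-Aa was 2768 and 1765 CPM against 81.9 and 105. Of 8 measured genes in this list, 6 were at least 4-fold higher in both libraries, against 4.38% of all genes. The highest Cd74 counts in LI were 578 in LI U3 and 435 in LI U6, and in SI 289 in SI U2, followed by 30 and 28 in SI U10 and SI U1. LI U3 held 9 of 12 genes of conventional dendritic cells, the highest of all low members, and 745 UMIs of Cst3 (cystatin C). SI U2 held 5 of these genes and 27 of the 28 SI UMIs of Ccr7, which leads dendritic cells to lymph nodes. SI U10 held 3 of 8 genes of migratory dendritic cells. Genes of plasmacytoid dendritic cells reached 3 of 8 in 3 LI and 2 SI cells. LI U8 held all 8, with 25 Ly6d and 6 Siglech UMIs, and Siglech was at 0 in SI.

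A set of 4 LI cells was led by Acp5 (tartrate-resistant acid phosphatase), Ctsk (cathepsin K), Mmp9 and Atp6v0d2, genes known from bone-resorbing cells. A list of 10 such genes was drawn up after these cells had been seen, and it chose the cells LI U1, LI U2, LI U5 and LI U22. At least 3 of the 10 were also held by 7.1% of other LI and 5.08% of other SI passing cells, and by 7 of 48 LI high members. Of the 10 genes, 6 lay under 5 CPM in other cells. At least 2 of these 6 were held by the 4 cells, 1 LI high member and 0 other passing cells. They are given no cell type name. Acp5 (chr9:22126727-22135711) had 541, 466, 326 and 13 UMIs in them, Ctsk 658, 555, 368 and 7, and Mmp9, a matrix-degrading protease, 333, 231, 48 and 3. Outside these cells the other 21 LI low members held 21 Acp5, 1 Ctsk and 0 Mmp9 UMIs. The set also held 37 Dcstamp UMIs, a gene needed for cell fusion, 33 of Oscar, a receptor that signals through Fcer1g, and 7 of Tnfrsf11a (the receptor RANK), with 25 of Csf1r and 295 of Tyrobp. Their depths ran from 1216 to 28146 UMIs, and together they held 43.3% of the UMIs pooled over LI low members. A member just above the Dcn/Col1a2 limit, LI M1 with 3 such UMIs, held all 10 genes as well, with 363 Acp5, 696 Ctsk and 238 Mmp9 UMIs.

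Single low members carried programmes of other lineages beside leukocyte markers. LI U4 held all 8 smooth muscle genes, with 308 UMIs of Actg2 and 400 of Acta2 (smooth muscle actins), and 5 B cell genes. LI U12 held 4 of 6 genes of interstitial cells of Cajal, with 11 UMIs of Kit, and 6 macrophage genes. Both held 3 leukocyte markers and few Dcn or Col1a2 UMIs (2 and 1), so a low count of these genes did not show that a barcode was free of other stroma. None of the low members was among the cells with the highest doublet scores, which held 9 of 48 LI and 6 of 37 SI high members (18.8% and 16.2%) and 10.0% and 8.15% of other cells. LI U4 scored 0.0183, against a median of 0.0459 in other LI cells. The scores therefore do not show that low members were single cells.

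More genes were higher in LI than in SI among the low members, but not when SI U1 was left out. Of 3665 genes with at least 50 CPM in low members of 1 library, 502 (13.7%) were at least 2-fold above SI in LI, and 280 (7.64%) were at least 2-fold above LI in SI, each with an interval that left out no change. In 80 of the 502 LI genes (15.9%) and 117 of the 280 SI genes (41.8%), over 50% of the UMIs came from 1 cell. UMIs were found in 3 or more cells for 481 of the LI and 195 of the SI genes, and in 1 cell for 9 and 42. Immunoglobulin, T cell receptor, haemoglobin, mitochondrial and sex-linked genes were left out of the ranking by ratio, which leaves out Igkc. Ratios in this ranking had the pseudocount of 1 CPM, which favours genes with 0 UMIs in the other library. By it the largest ratios towards LI were of Ctsk (1589 UMIs against 0, at least 202-fold), Mmp9 (615 against 0, at least 78.2-fold), Spp1 (osteopontin, 200 against 0, at least 25.4-fold), Tpm2 (158 against 0, at least 20.1-fold) and Atp6v0d2 (121 against 0, at least 15.4-fold), each bound being against 3 UMIs in SI. Against 3 UMIs the order differs, since Cxcl2, described above, lies ahead of Spp1, Tpm2 and Atp6v0d2. All Mmp9 and Atp6v0d2 UMIs and all but 1 of Ctsk came from the 4 Acp5 cells, as did 194 of the 200 Spp1 UMIs, and 154 of the 158 Tpm2 UMIs from LI U4. Towards SI, the same ranking named Fam110a and Rgs16, both with 7 UMIs against 0 (at least 6.11-fold), Eomes (a transcription factor of NK and CD8 T cells) and Klre1 (an NK cell receptor), both with 6 against 0 (at least 5.24-fold), and Ccr7 (28 against 1, log2 ratio -6.00). Eomes was found in 4 SI cells and Klre1 in 2. Over all genes, LI over SI had a median log2 ratio of 0.19. Without SI U1, 272 genes were higher in LI and 363 in SI, so the larger count changed side, and without the Acp5 cells 351 were higher in LI and 121 in SI.

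Few genes of leukocyte growth factors and their receptors were measured highly enough to compare. Of 9 ligand genes, 8 were at 0 in LI low members and all 9 in SI. Csf1 was 77.2 CPM in other LI cells and 71.2 in other SI cells, Kitl 70.5 and 103, and Il34 13.3 and 39.7. Among the receptors, Csf1r was 253 and 34.9 CPM in low members, and Il7r, the interleukin 7 receptor, was 66.7 and 122 CPM, from 4 cells in each library. Of the 9 ligand genes 2 were measured highly enough, Csf1 and Kitl, and both had 0 UMIs in the low members of both libraries. Against the level of 3 UMIs neither reached 4-fold. Of 8 receptor genes 3 were measured highly enough, and Il7r and Csf2rb were at least 4-fold higher in both libraries, but not Csf2ra. Il7r and Csf2rb were measured only through the low members, so their calls largely follow from the level limit. The share of 4.38% among all genes is therefore no measure for them. Csf2rb in SI came from 1 cell. Cxcl12, the ligand of Cxcr4, was 575 and 624 CPM in other cells and at 0 in low members, while Cxcr4 was 86.7 and 69.9 CPM in low members against 0.761 and 1.03. Tnfrsf11b, a decoy receptor for the ligand of RANK, was 48.1 and 60.6 CPM in other cells and at 0 in low members, and Tnfsf11, the ligand itself, was 1.14 and 0.273 CPM. Of 13 chemokine receptor genes 2, Ccr1 and Cxcr4, were measured highly enough, and both were at least 4-fold higher, against 4.38% of all genes. Both were measured only through the low members, so these calls largely follow from the level limit. Ccr1 in SI came from 1 cell.

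Early response genes were lower in the low members, while most interferon genes did not pass the fold. Of 14 dissociation and stress genes 8 were at least 4-fold lower in both libraries and 0 higher, against 5.19% and 4.38% of all genes. Fos was 1481 CPM in LI low members and 314 in SI, against 6338 and 5886 in other cells. Of 15 measured interferon response genes 3 were at least 4-fold lower, 0 were higher and 12 passed in neither direction. Isg15 was 93.4 CPM in LI low members against 237 in other LI cells. Of 5 measured cell cycle genes 2, Mki67 and Top2a, were at least 4-fold higher, with Mki67 in SI at 524 CPM from 3 cells. Both were measured only through the low members, which favours such calls, so the 4.38% of all genes is no measure for them. In LI both lay just past the fold, with log2 ratios of 2.08 (Mki67, from 2 cells) and 2.19 (Top2a, from 4 cells). Top2a in SI came from 2 cells.

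Among the Dcn/Col1a2-high members, those with at least 16 Dcn plus Col1a2 UMIs carried leukocyte transcripts beside stromal ones, and the LI members with 3 to 15 held about as few stromal genes as the low members. Of 3094 genes measured, 28 (0.905%) were at least 4-fold higher in the high members than in other passing cells of both libraries, and 5 of the 28 were the rule markers. The others included C1qa, C1qb, C1qc, Lyz2, Ctss (cathepsin S), Ccl5, Cd74, H2-Aa, Aif1 and Trbc1. C1qa was 453 CPM in LI and 175 in SI against 7.97 and 8.06 in other cells, and Ctss was 542 and 142 against 4.90 and 5.29. In the members with at least 16 Dcn plus Col1a2 UMIs alone, C1qa was 204 CPM in LI and 185 in SI, and Ctss 134 and 98.7, lower in LI than with the 7 cells that held fewer. Of the 28 genes, 20 were called in those members alone, and Cd74, H2-Aa, H2-Ab1, H2-Eb1, Ccl8, Lgals3, Rgs1 and Srgn no longer passed. The commonest marker combination was Tyrobp, Cd52 and Fcer1g, in 23 LI and 14 SI cells. Ptprc was found in 12 of 48 and 10 of 37 high members, against 19 of 25 and 10 of 12 low members.

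High members with at least 16 Dcn plus Col1a2 UMIs and fewer than 5 further leukocyte genes made up the larger share, 36 LI and 28 SI cells. Their markers amounted to a median of 4 UMIs per cell, and 16 and 12 of them held exactly 3, the lowest count that the rule allows. A UMI of Cd74 was found in 86.1% of these LI cells and 96.4% of the SI cells, against 17.7% and 20.3% of other passing cells. A C1q gene was found in 83.3% and 89.3% against 9% and 9.76%, and Lyz2 in 69.4% and 75.0% against 11.2% and 11.5%. Macrophage genes thus came with the markers in these cells, at a low count per cell. At least 3 macrophage genes were held by 33 of the 36 and 24 of the 28, against 10.5% and 9.91% of other passing cells. Median depth was 6072 and 7006 UMIs in these cells, against 5286 and 5679 in other passing cells, and depth was not matched here.

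The other high members with at least 16 Dcn plus Col1a2 UMIs held fuller leukocyte profiles. In LI there were 5, of which 1 held at least 3 T cell genes and 2 at least 3 B cell genes. In SI there were 6, and all 6 held at least 3 T cell genes. SI M8 held 140 Gzma and 104 Ccl5 UMIs with 126 Dcn plus Col1a2 UMIs. SI M16 held 161 Ccl5 UMIs and 9 T cell genes, and LI M5 held 9 B cell genes with 376 Dcn plus Col1a2 UMIs. High members with 3 to 15 Dcn plus Col1a2 UMIs numbered 7 in LI and 3 in SI, and 6 and 2 of them held at least 5 further leukocyte genes.

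Position along the gut, read from Hox genes, was seen in the high members and hardly in the low ones. At least 3 of 19 anterior Hox genes were held by 16 of 37 SI high members (43.2%) and 7 of 48 LI high members (14.6%), near the 46.8% and 15% of other passing cells. Posterior Hox genes reached 3 of 13 in 7 of 48 LI and 0 of 37 SI high members, against 19.9% and 0.229% of other cells. The low members held 7 anterior and 9 posterior Hox UMIs in LI and 1 and 0 in SI.

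Transcripts of Y-linked genes were rare in the low members. Cells with a Y-linked UMI and no Xist made up 0 of 25 low members in LI and 1 of 12 in SI, against 12.5% and 27.0% of high members and 9.01% and 24.3% of other passing cells. Low members were shallower, and with these few cells the shares have wide counting intervals.

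Clustering of the 37 low members alone gave 4 clusters of 11, 6, 11 and 9 cells, and cluster genes describe how the cells were grouped. A cluster of 11 cells, 9 from LI, was led by Ckb, Tpm1, Acp5, Tubb6 and Yae1d1 and held the 4 Acp5 cells and both cells with muscle or Cajal genes. A cluster of 6 cells, all from LI, was led by Cxcl2, Thbs1, Cd14, Wfdc17 and Clec4e. A T cell-like cluster of 11 cells, 5 from LI and 6 from SI, was led by Thy1, Cd28, Cd8b1, Cxcr6 and Sh2d2a. The last cluster, 5 LI and 4 SI cells, was led by H2-DMb2, Ighm, Zfp593, Pafah1b3 and Dpy19l1 and stays unnamed.

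Leukocytes near the limit of the rule were also seen. Among cells with 2 markers and 0 to 2 Dcn plus Col1a2 UMIs there were 6 in LI and 4 in SI. Of the 6 LI cells, 1 held 5 T cell genes and 3 held at least 3 B cell genes, and 5 of the 6 held at least 5 further leukocyte genes. Of the 4 SI cells 3 held at least 5 T cell genes, and the fourth was led by Emcn and held Kdr, both endothelial genes. The rule needs 3 markers, and B and T cells that express neither Tyrobp nor Fcer1g can reach it only through Ptprc, Cd52 and Laptm5.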

How the data were processed

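Single-cell RNA-seq of 1 LI and 1 SI graft library was analysed, with samples grouped by their titles. The authors aligned reads to mm10 with Cell Ranger 3.1.0 and deposited, per library, raw UMI counts per gene and barcode (the submitters' notes also name Seurat 3). The annotation release was not given in the sources used here. No cell annotation was used.

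Kept barcodes held at least 500 genes, with mitochondrial UMIs at or under 10%, since no limits were given in the sources used here. Scrublet (scanpy 1.11.5) called 0 doublets by its own threshold, which is under 0.5% of cells and so did not work, and doublets were kept. Removing the highest scores at 0.8% per 1000 barcodes was an alternative. UMIs of each cell group were pooled and scaled to 1000000 (CPM). Log2 ratios had a pseudocount of 1 CPM. Shares have exact Clopper-Pearson, levels exact Poisson and ratios exact binomial intervals at 95%. Cells are not replicates, so no test or p-value was made, and a called gene is one past a fixed fold. A floor of 3 UMIs was used against counts of 0, and for genes called lower in low members at counts below it, the latter chosen after values were seen. Low members were clustered on 1000 variable genes, 10 principal components and 6 neighbours at a resolution of 1.0. Steps across genes were tested on simulated data. Named genes are those of fixed lists, the 20 with the largest ratio in both libraries (at least 100 CPM in low members), the 5 with the largest LI to SI ratio each way (at least 100 CPM and a UMI in 10% of cells, without sex-linked, haemoglobin, mitochondrial, immunoglobulin and T cell receptor genes) and the 5 leading genes of each cluster. Further genes that lead a cell or the high members are named after their values were seen. Listed genes numbered 491 with a coordinate in GENCODE vM21, and 4 listed symbols were not found. Members and lists were chosen with earlier results of these data known. The Acp5 list and 9 alternatives were added after values were seen. The alternatives chosen earlier were other filters, marker minimums, splits, thinning to 2000 UMIs, mean per-cell CPM, no minimum level, pseudocounts, 5 macrophage genes and cluster resolutions. Software was pandas 2.3.3, scipy 1.17.1, numpy 2.4.6 and matplotlib 3.10.9 under Python 3.11.15.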

Additional observations from a re-analysis of the deposited data

Results flagged for a closer look

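Apoe went in opposite directions in the 2 libraries. Its log2 ratio of Dcn/Col1a2-low members over all other passing cells was 2.20 in LI (678 UMIs in 13 of 25 cells) and -3.82 in SI (6 UMIs, all in 1 of 12 cells), and the difference was not tested. Levels in other passing cells were 982 and 1497 CPM.

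Barcodes outside the cell filter also held leukocyte markers. At least 3 of the 5 markers were found in 25 of 1695 such barcodes in LI (1.48%, interval 0.957 to 2.17) and in 21 of 1721 in SI (1.22%, interval 0.757 to 1.86). These barcodes were in no comparison, and the share of members among passing cells was 0.739% and 0.62%. The share was set only against the limit that a count of 0 allows, so it says that the markers were detected and not that they exceeded free RNA, which was not tested. Of the 25 and 21, 17 and 14 held 0 to 2 Dcn plus Col1a2 UMIs, and 17 in each library held at least 3 macrophage genes.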

How the results depend on the processing

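Of 73 alternative values of the shares and counts, 48 stayed close to the reported value and 25 moved. The share of passing cells that were members was 2.13% (LI) and 2.23% (SI) with at least 2 markers, 0.253% and 0.101% with at least 4, 0.24% and 0.163% after thinning to 2000 UMIs, and 1.41% and 1.35% with at least 3 UMIs over the markers. The Dcn/Col1a2-low share of members was 14.8% and 9.09% with at least 2 markers, 72.7% and 58.3% after thinning, and 13.7% and 10.2% with 0 Dcn plus Col1a2 UMIs only. In LI it was also 52% with at least 4 markers and 21.8% with 1000 genes and 5% mitochondrial UMIs. The SI share with macrophage genes was 0% with 0 Dcn plus Col1a2 UMIs only, with at least 5 macrophage genes and after thinning. Genes higher in low members numbered 225 by mean per-cell CPM and 422 with no minimum beyond 1 UMI, and genes lower in them 172 against the level of 3 UMIs and 498 with the pseudocount alone. Genes higher in LI numbered 272 without SI U1, against 363 higher in SI, and genes higher in SI 119 with 0 Dcn plus Col1a2 UMIs only and 121 without the Acp5 cells. Clusters numbered 8 at a doubled resolution. The smaller log2 ratio of a named gene turned with 0 Dcn plus Col1a2 UMIs only for Ccl4 (-2.62), Il1b (-3.52), Dnase1l3 (-0.30) and Ccr1 (-0.21), where fewer SI cells were left, and for Ly6d (-0.19) without SI U1. Among 180 values of named genes over other cells 146 stayed and 29 moved without a turn, and among 90 of LI over SI 83 stayed and 7 moved. No paired analysis was possible because each group had 1 library. Low members numbered 25 and 12, so 3 UMIs, the floor used for ratios against 0, stood for 20 CPM in LI and 52.4 CPM in SI, and no alternative supplies the missing replicate library.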
